A study of Mus musculus with 6 samples.

Results

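The 3p strands of the miRNAs numbered miR-6896 to miR-7094 were described in the small intestinal mucosa of mice with and without the circular RNA Cdr1as. A mature miRNA was included when its number lay in this range, whatever its letter suffix, and its name ended in 3p. The rule used the name alone and no level, although the number range was proposed with earlier results of these data known, and it gave 176 members among the 1831 mature mouse miRNAs of the deposited table. Small RNAs were measured on 6 one-colour arrays, 1 per animal, 3 from control littermates (labelled wildtype, WT-1 to WT-3) and 3 from Cdr1as-/- mice (labelled cdr1as knockout, KO-1 to KO-3). The Cdr1as-/- strain carried a CRISPR/Cas9 deletion of the Cdr1as locus on the C57BL/6J background, in every cell type of the animal. Neither group was given a treatment according to the labels, and age was not given in the sources used here. The tissue held several cell types, so fewer cells of a type and less RNA per cell cannot be told apart. Levels below are the normalized log2 values per miRNA that the authors deposited, and differences are Cdr1as-/- minus littermates on the log2 scale. Probes bind their targets with different strength, so a level was compared between arrays for the same miRNA and not read as abundance between miRNAs.

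A mirtron is a short intron that folds into a hairpin once it has been spliced out, and that enters the miRNA pathway without cleavage by Drosha. Dicer then cuts the hairpin into a 5p and a 3p strand. The 3p strand of such a hairpin comes from the end of the intron, which carries a stretch of pyrimidines followed by the AG of the 3′ splice site. In tailed mirtrons only one end of the hairpin lies at a splice site.

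The sequences of the members carried this end. Of the 176 members, 150 (85.2%) ended in AG, compared with 138 of the 1655 other miRNAs (8.34%), 60 of the 570 other 3p strands (10.5%) and 17 of the 199 5p strands of the same number range (8.54%). The last 3 bases were CAG in 131 members, UAG in 17 and AAG in 2. The median pyrimidine content was 71.4% in the members, from 47.6% to 91.3%, against 47.6% in all other miRNAs and 31.8% in the 5p strands of the range. The members were 18 to 25 bases long, with a median of 21. The deposited table marked 70 members (39.8%) as high confidence, against 39.2% of the 5p strands of the range. Among the other 3p strands 77.4% were so marked, and among all other miRNAs 58.3%. RefSeq held 154 of the 176 members by name, and every one of the 154 was identical in sequence to the deposited one. For 149 of them RefSeq also gave the hairpin. Of those 149 hairpins, 140 ended in AG, 20 started with GU and 17 did both, and the median hairpin was 65 bases long. The AG end that gives the group its mirtron label was thus present in most hairpins, and the GU start of a whole intron in few. A protein-coding gene spanned the hairpin on the same strand in 127 of the 149, where intron and exon borders were not analysed here.

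The members on which the results turn are printed below as RefSeq mature sequences of GRCm38.p6, 5′ to 3′, with the seed (bases 2 to 8) and the last 3 bases in capitals. They are shown because they carry the differences described below: the first 3 stop before the last base of their hairpin, and the others end with it.
miR-7069-3p (chr8:84867987-84868007, plus strand, within the span of Farsa): cCUGCCCUgccaaccccuACA
miR-7047-3p (chr7:24987606-24987628, minus strand): uCACCCUCacccuuccuccuUCC
miR-6957-3p (chr15:80646113-80646134, plus strand, within the span of Grap2): uGGAUCUCuuguuuucucuUCC
miR-7039-3p (chr5:144896732-144896753, minus strand, within the span of Smurf1): cCUGUUCUgcccucccuucCAG
miR-6976-3p (chr17:46553827-46553847, minus strand, within the span of Srf): aUCUCCCUcccaacucccCAG
miR-7033-3p (chr5:135383730-135383750, minus strand, within the span of Pom121): uGCCUCCAuucucuugggCAG
miR-7077-3p (chr8:117453060-117453079, plus strand, within the span of Cmip): cCUUCCAUggcuccuggCAG

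The RefSeq hairpins show where the strands that do not end in G stop. In the lines that follow, the mature 3p strand is in capitals and the rest of the hairpin in lower case.
miR-7069 hairpin: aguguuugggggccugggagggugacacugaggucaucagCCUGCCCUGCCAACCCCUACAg
miR-7047 hairpin: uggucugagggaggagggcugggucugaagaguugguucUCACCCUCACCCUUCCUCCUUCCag
miR-6957 hairpin: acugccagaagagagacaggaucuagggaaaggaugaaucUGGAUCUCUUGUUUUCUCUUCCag
miR-6976 hairpin: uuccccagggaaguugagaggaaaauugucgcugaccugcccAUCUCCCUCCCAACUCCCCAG
The mature strand ended 1 base before the end of the hairpin in miR-7069 and 2 bases before it in miR-7047 and miR-6957, leaving the G or the AG behind. Of the 126 members with a hairpin that ended in G, 120 ran to the last base of the hairpin. Of the 23 members with a hairpin that did not end in G, 22 stopped 1 to 7 bases short of it, and 20 of these 23 hairpins ended in AG.

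The array of littermate 3 stood apart from the others before any scaling. The median over the members of the background-subtracted probe signal was 337 on that array, against 7.41 and 10.2 on the arrays of littermates 1 and 2 and 9.73 to 29.6 on the Cdr1as-/- arrays. All 176 members had a probe well above background on the arrays of littermate 3 and Cdr1as-/- 1, 159 to 175 on those of littermates 1 and 2 and Cdr1as-/- 3, and 100 on that of Cdr1as-/- 2. On all 6 arrays 100 members were well above background, and 159 on every array of at least 1 group. The lowest value of an array was often shared by several miRNAs, as a floor, and 13 members lay on it in littermate 1, at 2.80, and 6 each in Cdr1as-/- 2 and 3. Littermates 1 to 3 and Cdr1as-/- 1 shared a slide, and Cdr1as-/- 2 and 3 shared another. Littermate 1 alone had a scan identifier of its own, and the other 5 arrays shared a different one, so that scan and animal cannot be told apart there. The 9 epithelial marker miRNAs were well above background on all 6 arrays. The log2 of their summed unlogged levels was 16.0 in littermate 3, the lowest, and 17.0 to 17.2 on the other 5. By the same measure, the 4 smooth muscle miRNAs stood at 7.01 in littermate 3, 11.1 and 11.2 in the other littermates and 9.99 to 12.5 in Cdr1as-/- mice. The 4 immune miRNAs stood at 8.96 in littermate 3, 11.9 and 11.97 in the other littermates and 11.5 to 12.2 in Cdr1as-/- mice. For the 2 erythroid ones it was 5.78 in littermate 3, 8.20 and 10.1 in the other littermates and 7.42 to 8.11 in Cdr1as-/- mice. Each comparison is given with all 6 arrays and without littermate 3, a choice planned with earlier results of these data known. The part of these markers in the comparisons was not tested.

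With all 6 arrays, no member passed the adjusted test. By limma over all 1831 miRNAs, 0 of the 176 members passed an adjusted p of 0.05, as did 0% of all miRNAs, and the lowest adjusted p among the members was 1.0. At an unadjusted p under 0.05, 1 member was lower in Cdr1as-/- mice (0.568%) where 0.218% of all miRNAs were, and 0 were higher where 0.109% were. The 3 Cdr1as-/- arrays lay below all 3 littermate arrays in 4 members (2.27%, against 2.73% of all miRNAs) and above them in 0 (0.437% of all miRNAs). The median difference was -0.02 over the members and -0.07 over all miRNAs.

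Without littermate 3, the members spread to both sides. Again 0 members and 0% of all miRNAs passed an adjusted p of 0.05, with a lowest adjusted p of 0.158 for miR-7069-3p. At an unadjusted p under 0.05, 14 members were lower (7.95%, against 10.5% of all miRNAs) and 11 higher (6.25%, against 2.73%). The groups did not overlap in 21 members that were lower (11.9%, against 19.9% of all miRNAs) and 45 that were higher (25.6%, against 20.3%). The median difference was 0.31 over the members and 0.09 over all miRNAs. With scanner signals scaled to the 75th percentile of the detected probes, 14 were lower (7.95%, against 8.52% of all miRNAs) and 3 higher (1.70%, against 2.08%), and the median difference was 0.05 over the members and -0.14 over all miRNAs. Without littermate 1 as well, the array with its own scan identifier, 6 were lower (3.41%, against 2.84%) and 3 higher (1.70%, against 1.15%). Other settings brought members past the adjusted threshold here. With the slide as a block, a fit in which Cdr1as-/- 1 alone is set against littermates 1 and 2, limma called 17 members (9.66%, against 15.6% of all miRNAs), 10 lower and 7 higher. Without Cdr1as-/- 2, it called 10 members (5.68%, against 12.2%), all lower and all among the lower ones of the slide fit. Both fits rest on littermates 1 and 2 and Cdr1as-/- 1, so this overlap is no independent support.

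miR-7069-3p had the most negative difference of the 176 members without littermate 3. On the arrays of littermates 1, 2 and 3 it stood at 5.14, 5.14 and 3.002, and on those of Cdr1as-/- mice 1, 2 and 3 at 3.20, 3.33 and 3.74. Littermates 1 and 2 lay above every Cdr1as-/- mouse, and littermate 3 below every one of them. The difference was -1.71 (SE 0.26) without littermate 3, with an adjusted p of 0.158 by limma and an exact permutation p of 0.1, the smallest that 3 against 2 arrays allow. The array of Cdr1as-/- 2 held no probe of it well above background. With all 6 arrays the difference was -1.001 (SE 0.62), with an adjusted p of 1.0 by limma and an exact permutation p of 0.4. Without littermate 3, its adjusted p by limma was 0.0149 with the slide as a block, 0.0216 without Cdr1as-/- 2, 0.0120 after scaling to the 75th percentile of all probes and 0.00624 with an intensity trend, and it was at most 0.532 over all settings tried.

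miR-7047-3p had the same order of arrays. The littermate arrays gave levels of 5.92, 5.83 and 3.29, and the Cdr1as-/- arrays of 4.47, 4.79 and 5.003. All 3 Cdr1as-/- values lay between littermate 3 below and littermates 1 and 2 above. The difference was -1.12 (SE 0.25) without littermate 3, with an adjusted p of 0.247 by limma and an exact permutation p of 0.1. It was -0.26 (SE 0.73) with all 6 arrays, with an adjusted p of 1.0 by limma. The adjusted p by limma without littermate 3 was 0.0187 with the slide as a block and 0.0269 without Cdr1as-/- 2, and it was at most 0.888 over all settings. miR-6957-3p, which also ends in UCC, had levels of 6.72, 6.63 and 3.80 on the littermate arrays and 5.09, 5.73 and 5.76 on the Cdr1as-/- arrays. Its difference was -1.15 (SE 0.28) without littermate 3, with an adjusted p of 0.247 by limma, and -0.19 (SE 0.81) with all 6 arrays. In that member too the littermates enclosed the Cdr1as-/- mice, and its adjusted p without littermate 3 was 0.0182 by limma with the slide as a block and 0.0264 without Cdr1as-/- 2.

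miR-7039-3p ran the opposite way. The littermate arrays gave levels of 2.80, 3.05 and 4.30, and the Cdr1as-/- arrays of 3.73, 3.74 and 3.48. Littermate 1 was at the floor of its array, and neither that array nor the one of Cdr1as-/- 2 held a probe of it well above background. All 3 Cdr1as-/- values lay above littermates 1 and 2 and below littermate 3. The difference was 0.72 (SE 0.24) without littermate 3, with an adjusted p of 0.270 by limma and an exact permutation p of 0.1. With all 6 arrays it was 0.27 (SE 0.43), with an adjusted p of 1.0 by limma, and its sign turned to -0.11 after scaling to the 75th percentile of the detected probes.

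**Figure D1:**
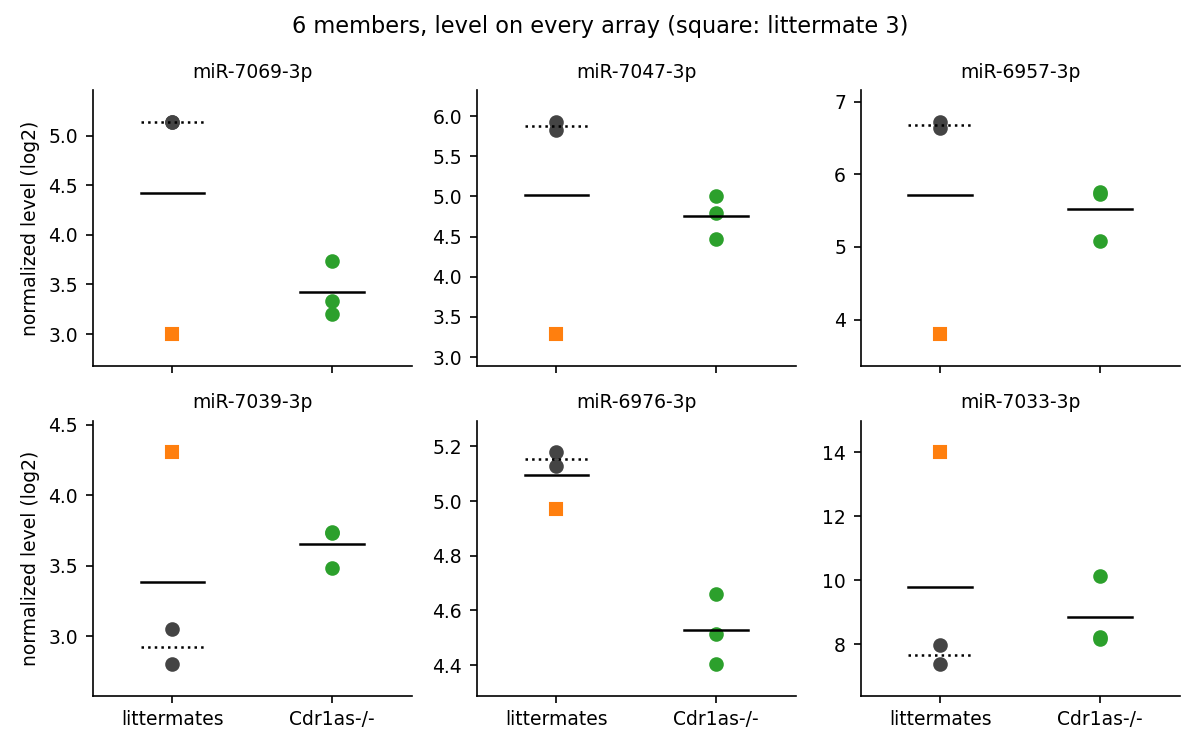
Normalized log2 level (vertical axes, each with its own range) of 6 members on every array, with littermates on the left and Cdr1as-/- mice on the right of each panel; the orange square is littermate 3, solid bars are group means and the dotted bar is the mean of littermates 1 and 2. Littermate 3 lies below the Cdr1as-/- mice for miR-7069-3p, miR-7047-3p and miR-6957-3p and above them for miR-7039-3p, miR-6976-3p and miR-7033-3p.

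Of the members with the smallest p, miR-6976-3p was the one least moved by littermate 3. The littermate arrays gave levels of 5.13, 5.18 and 4.97, and the Cdr1as-/- arrays of 4.51, 4.66 and 4.40, without overlap. The difference was -0.57 (SE 0.21) with all 6 arrays, at an unadjusted limma p of 0.0368 and an adjusted p of 1.0, and -0.63 (SE 0.23) without littermate 3, at an adjusted limma p of 0.305. The exact permutation p was 0.1 with all 6 arrays, the smallest that 3 against 3 allow. miR-7036b-3p, at 5.15, 5.07 and 5.31 on the littermate arrays and 4.95, 4.37 and 4.84 on the Cdr1as-/- arrays, and miR-7071-3p, at 3.33, 3.36 and 3.91 against 3.20, 2.99 and 3.03, did not overlap between the groups either. Their differences with all 6 arrays were both -0.46 (SE 0.25), with adjusted limma p of 1.0, and -0.39 and -0.27 without littermate 3. Neither the array of littermate 1 nor that of Cdr1as-/- 2 held a probe of miR-7071-3p well above background.

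On the other side, miR-6942-3p had levels of 2.80, 2.64 and 3.07 on the littermate arrays and 3.06, 3.64 and 3.33 on the Cdr1as-/- arrays. The first 2 were floor values, and only 3 arrays held a probe well above background. Its difference was 0.50 (SE 0.26) with all 6 arrays and 0.62 (SE 0.26) without littermate 3, with adjusted limma p of 1.0 and 0.364. miR-6941-3p (3.52, 3.92 and 5.28 against 4.56, 4.10 and 4.54) and miR-6988-3p (2.80, 3.40 and 4.53 against 3.94, 4.17 and 3.48) lay above littermates 1 and 2 and below littermate 3 in every Cdr1as-/- mouse. Their differences without littermate 3 were 0.67 (SE 0.26) and 0.76 (SE 0.30), both with an adjusted limma p of 0.350, and 0.15 and 0.29 with all 6 arrays. The array of Cdr1as-/- 2 held no probe of either well above background. For miR-6988-3p the array of littermate 1 held none either, and its level of 2.80 there was the floor of that array.

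Single spots set the largest positive differences of all members. miR-6938-3p had levels of 4.92, 4.93 and 6.46 on the littermate arrays and 5.58, 12.70 and 5.05 on the Cdr1as-/- arrays. On the array of Cdr1as-/- 2, 1 of its 5 probes gave a signal of 32900 and was marked as an outlier by the extraction software, whereas the other 4 gave 16.8 to 27.1. miR-6926-3p had levels of 4.68, 4.68 and 5.56 on the littermate arrays and 5.08, 5.13 and 12.13 on the Cdr1as-/- arrays, and on the last array 1 marked probe gave 17700 and the other 4 gave 13.1 to 14.8. The deposited value averages the probes of a miRNA before the log, so each spot carried its value alone. With the median over the probes in place of the mean, the Cdr1as-/- 3 value of miR-6926-3p was 4.79. The differences of 2.34 (SE 2.03) for miR-6938-3p and 2.47 (SE 1.91) for miR-6926-3p with all 6 arrays did not pass the test (adjusted limma p of 1.0 for both), and that of miR-6938-3p was -0.11 with the median over the probes. Of the 4902 spots of the members, 3 were marked in this way, the remaining one in miR-6946-3p on the array of littermate 2 (133, against 7.75 to 13.3 in the other 4 probes).

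The highest normalized level of any member came from littermate 3. miR-7033-3p had levels of 7.97, 7.39 and 13.998 on the littermate arrays and 10.15, 8.22 and 8.16 on the Cdr1as-/- arrays. Before scaling, its median probe signal was 89.2, 68.8 and 25600 on the littermate arrays and 1810, 150 and 177 on the Cdr1as-/- arrays. Littermate 3 was first and Cdr1as-/- 1 second on both scales. miR-7077-3p (5.71, 5.22 and 9.89 against 7.25, 6.07 and 5.94), miR-7026-3p (5.42, 5.18 and 9.08 against 7.04, 6.03 and 5.66) and miR-6900-3p (5.63, 5.39 and 8.66 against 6.80, 6.14 and 5.78) had the same order, with littermate 3 highest and Cdr1as-/- 1 next. These 4 and miR-6938-3p had the highest mean levels over the 6 arrays, and miR-6938-3p, miR-6926-3p and miR-7033-3p the largest SD. Without littermate 3, the differences of miR-7033-3p, miR-7077-3p, miR-7026-3p and miR-6900-3p were 1.16, 0.95, 0.94 and 0.73, and with all 6 arrays -0.94, -0.52, -0.32 and -0.32. Their sign turned with that array, and no adjusted limma p was below 0.364 in these fits, while all 4 were among the 7 members called higher with the slide as a block.

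The direction in which littermate 3 departed from the other littermates went with the last bases of the mature strand. This split was made after the levels were seen and was not tested. Among the 150 members ending in G, the arrays of littermates 1, 2 and 3 had median levels of 4.13, 4.27 and 5.11, and those of Cdr1as-/- mice 1, 2 and 3 had 4.51, 4.66 and 4.24. Littermate 3 was the highest of the 6 arrays in 141 of them and the lowest in 0. Among the 15 members ending in C, the median was 5.15, 5.07 and 3.19 on the littermate arrays and 3.999, 4.37 and 4.51 on the Cdr1as-/- arrays, and littermate 3 was the lowest of the 6 in 10 and the highest in 2. The 11 members ending in A or U held littermate 3 lowest in 4 and highest in 1. Over all 1831 miRNAs, littermate 3 was highest in 49.3% and lowest in 22.1%, and over the 176 members in 81.8% and 7.95%. The members hold more strands ending in G than the other miRNAs do. Of the strands ending in G, littermate 3 was highest in 94% of members, 73.0% of other miRNAs and 79.3% of 5p strands of the range. Of those ending in C, it was lowest in 66.7% of members, 60.8% of other 3p strands and 16.7% of 5p strands of the range. The count of 141 was 116 or 83 when scanner signals were scaled to the 75th percentile of the detected or of all probes.

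**Figure D2:**
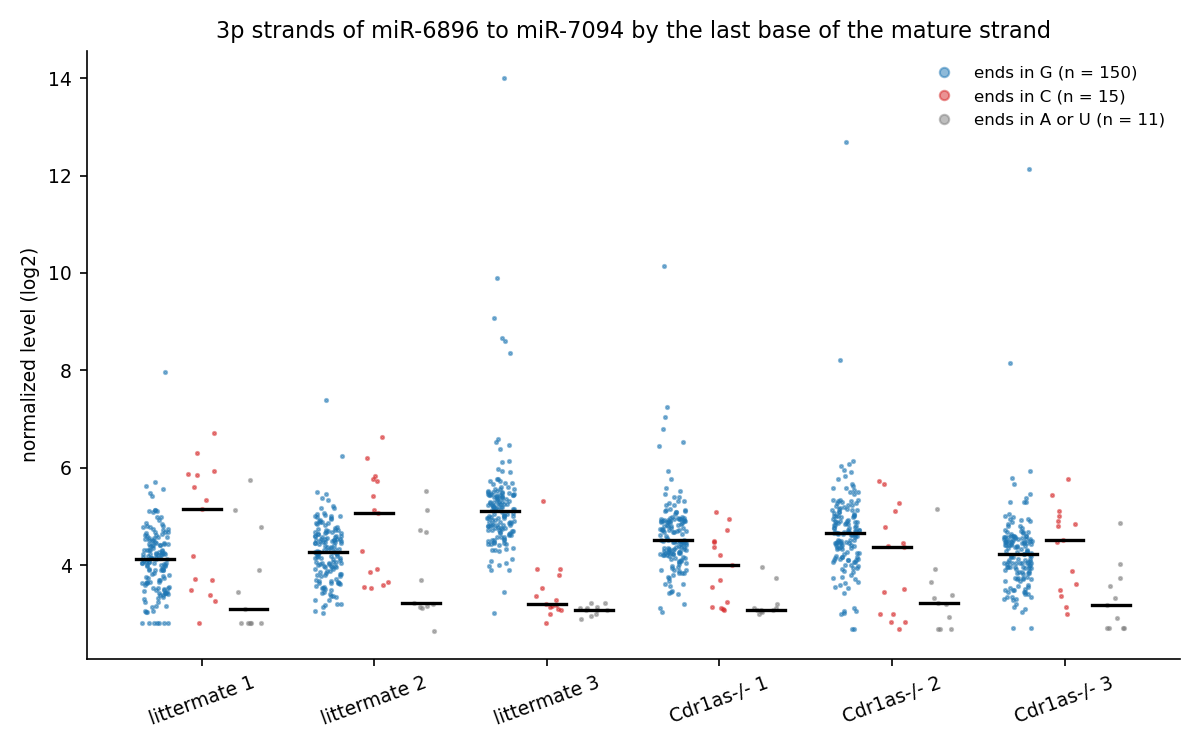
Normalized log2 level (vertical axis) of the 176 members on each array (horizontal axis), split by the last base of the mature strand into G (n = 150), C (n = 15) and A or U (n = 11); each point is a member and black bars are medians. In littermate 3 the members ending in G have a median of 5.11 and those ending in C of 3.19, whereas in littermate 1 the medians are 4.13 and 5.15.

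Within an array, the gap between the median of the members ending in G and of those ending in C did not depend on a shift of the whole array. The arrays of littermates 1, 2 and 3 had gaps of -1.02, -0.80 and 1.91, and those of Cdr1as-/- mice 1, 2 and 3 of 0.51, 0.29 and -0.27. The gap was widest in littermate 3 and lowest in littermates 1 and 2, with the Cdr1as-/- arrays between them. The order of arrays among the 1655 other miRNAs was close to it, with gaps of 1.25, 1.33 and 3.08 on the littermate arrays and 2.40, 1.97 and 1.83 on the Cdr1as-/- arrays. The 5p strands of the range, of which 58 ended in G and 30 in C, gave 1.28, 1.11 and 2.28 against 1.995, 1.65 and 1.25. From scanner signals, which keep 1 probe per miRNA, the gap over the members was -0.80, -0.59 and 2.37 on the littermate arrays and 0.62, 0.47 and -0.35 on the Cdr1as-/- arrays. Per the labels, the RNA was dephosphorylated and Cy3 was joined enzymatically to its 3′ end, and the part of this step in the pattern was not tested.

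**Figure D3:**
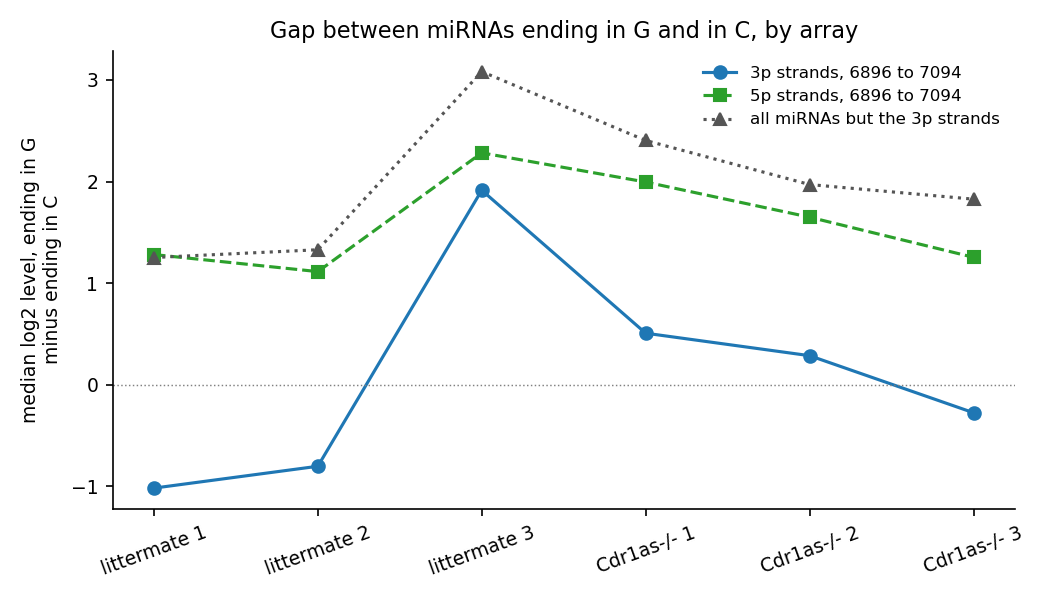
Median log2 level of miRNAs ending in G minus that of miRNAs ending in C (vertical axis) on each array (horizontal axis), for the 176 members (circles), the 199 5p strands of the same number range (squares) and the 1655 miRNAs other than the members (triangles). All 3 lines peak in littermate 3, at 1.91, 2.28 and 3.08.

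Some longer ends, picked after the levels were seen, lay far from the 0.95 by which the median member ending in G was higher in littermate 3 than in the mean of littermates 1 and 2. This shift had a median of 0.82 over the 57 members ending in CCAG and 0.88 over the 29 in ACAG. It was 0.93 over the 18 in UCAG and 1.16 over the 17 in UAG, so these medians lay close to the value for G alone. Single members lay further off, up to 2.59 in CCAG and 3.78 in UAG. The UAG members miR-7026-3p and miR-6900-3p, at 3.78 and 3.15, came near or into the range of the GGCAG members below. Of the members, 7 ended in UCC: miR-6957-3p, miR-7047-3p, miR-7082-3p, miR-6997-3p, miR-6910-3p, miR-7088-3p and miR-7036b-3p. Littermate 3 was the lowest of the 6 arrays in 6 of these and the highest in miR-7036b-3p, and their median levels were 5.86, 5.73 and 3.35 on the littermate arrays and 4.47, 4.79 and 5.003 on the Cdr1as-/- arrays. The 35 other miRNAs that ended in UCC had medians of 5.78, 5.70 and 3.59 on the littermate arrays and 4.60, 5.05 and 5.19 on the Cdr1as-/- arrays, with littermate 3 lowest in 30. At the other extreme, 4 members ended in GGCAG: miR-7033-3p, miR-7077-3p, miR-6990-3p and miR-6908-3p. These 4 were 3.36 to 6.32 higher in littermate 3 than in the mean of littermates 1 and 2, while the 23 members that ended in GCAG without the further G had a median shift of 1.05, from -0.69 to 1.66. Only 3 other miRNAs ended in GGCAG, and they were 1.51 to 5.91 higher in littermate 3. The ends of these strands, with the last 3 bases in capitals after the seed, are as follows.
miR-6910-3p (chr10:79862629-79862650, plus strand, within the span of Ptbp1): uCAUGGUUuccacccuuugUCC
miR-7082-3p (chr9:21075499-21075520, minus strand, within the span of Raver1): gCCCCCCUugcugucugucUCC
miR-6990-3p (chr19:6914196-6914216, minus strand, within the span of Esrra): aGCCCUGCcucuuccuggCAG
miR-6908-3p (chr10:78445095-78445116, minus strand, within the span of Pdxk): aCACUCUCccuugugcuggCAG

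The differences between groups were split by the last base too. They come from the same arrays and the split made after the levels were seen, so they are no independent evidence of the pattern. Without littermate 3, the median difference was 0.33 over the 150 members ending in G, with 135 above 0, and -0.66 over the 15 ending in C, with 14 below 0. The 11 members higher at an unadjusted limma p under 0.05 held 10 that ended in G, where 85.2% of all members do, and the 14 lower ones held 12 that did not. Of the other miRNAs, 26.6% of which end in G, 18 of the 39 higher ones ended in G, and 176 of the 178 lower ones did not. Among the 1655 other miRNAs, the median difference was 0.38 over the 440 ending in G and -0.33 over the 348 ending in C. With all 6 arrays, the medians of the members were 0.00 for G and -0.20 for C. Over the members not ending in G, the median without littermate 3 was -0.51 and stayed below 0 in every setting tried, from -0.99 to -0.20, while that over members ending in G stayed above 0, from 0.08 to 0.47. Of the 10 members called lower with the slide as a block, 10 did not end in G, and of the 7 called higher, 7 did. The same fit called 164 other miRNAs lower, of which 156 did not end in G, and 104 higher, of which 66 did.

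**Figure D4:**
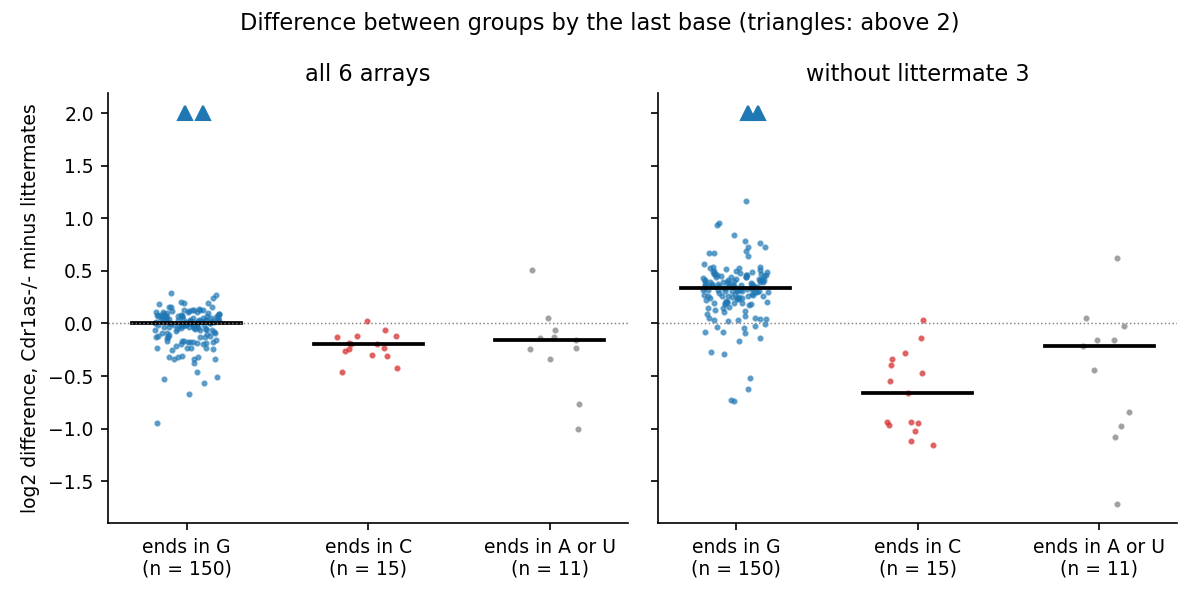
Log2 difference, Cdr1as-/- minus littermates (vertical axis), of the 176 members by last base of the mature strand (G, n = 150; C, n = 15; A or U, n = 11), with all 6 arrays on the left and without littermate 3 on the right; points are members, triangles are the 2 members above 2 (miR-6926-3p and miR-6938-3p) and bars are medians. The medians for G and C are 0.00 and -0.20 on the left and 0.33 and -0.66 on the right.

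Targets of a miRNA are recognised largely by its seed, and 14 members shared a seed with another member, in 7 pairs. The pair with seed CUGUUCU joined miR-7039-3p to miR-6932-3p, whose level was 3.64, 3.82 and 4.72 on the littermate arrays and 4.19, 4.11 and 3.96 on the Cdr1as-/- arrays. Both lay above littermates 1 and 2 and below littermate 3 in every Cdr1as-/- mouse. The pair with seed CUUCCAU joined miR-7077-3p to miR-7048-3p (3.89, 4.18 and 5.01 against 4.47, 4.45 and 4.26). In that pair littermate 3 was the highest array for both, by far more in miR-7077-3p. One pair had unlike ends: with seed CAGCCUC, miR-6971-3p ended in CAG and had levels of 4.32, 4.52 and 5.44 against 4.93, 5.03 and 4.49, while miR-6947-3p ended in UCA and had 2.80, 3.16 and 3.22 against 3.07, 2.69 and 2.70. Both were highest in littermate 3 despite their unlike ends, but miR-6947-3p stood at 3.22 or less on every array and nearly equal in littermates 2 and 3. It has 1 probe, which was well above background on 3 arrays. Its values in littermate 1 and in Cdr1as-/- 2 and 3 were the floors of those arrays. The remaining pairs were miR-6992-3p and miR-7015-3p (CUCACUG), miR-6935-3p and miR-7092-3p (GUUCUUU), miR-7010-3p and miR-7041-3p (GGUUCUC), and miR-7018-3p and miR-7068-3p (CACCCUG). All 8 of these ended in AG and were highest in littermate 3, at 4.78 to 6.52, and no member of a shared seed passed an adjusted limma p of 0.05 with all 6 arrays or without littermate 3.
The members of the pairs named first are shown with seed and last 3 bases in capitals.
miR-6932-3p (chr11:107637759-107637779, plus strand, within the span of Helz): uCUGUUCUgcuuccucugCAG
miR-7048-3p (chr7:25217668-25217688, minus strand, within the span of Dedd2): uCUUCCAUucucuuucccCAG
miR-6947-3p (chr14:29988930-29988951, plus strand): gCAGCCUCuuucccuggcaUCA

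The 3p strands of 3 mirtrons with numbers outside this range are given for comparison. miR-702-3p, which ends in UCC, had levels of 4.09, 3.91 and 2.83 on the littermate arrays and 3.06, 3.43 and 3.69 on the Cdr1as-/- arrays, and miR-1224-3p, which ends in CAG, had 4.60, 4.65 and 5.38 against 4.91, 5.17 and 4.43. Littermate 3 was the lowest array for the first and the highest for the second. miR-877-3p, which ends in CCA, had 3.29, 3.23 and 3.07 against 3.12, 2.69 and 2.70, with littermate 3 between the others. None of these 3 strands passed an adjusted limma p of 0.05, the lowest being 0.37 for miR-702-3p without littermate 3.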

How the data were processed

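Total RNA of small intestine was labelled with Cy3 and hybridised to 1-colour small RNA arrays, which the authors scanned and extracted with Agilent Feature Extraction 11.0.1.1. The authors deposited normalized log2 values per miRNA. Their method of normalization is not given in the sources used here. The deposited probe values have nearly equal quartiles and maxima on all 6 arrays. The values equalled the log2 of the mean over 1 to 5 probes within 0.0003. The deposited scanner intensities supplied background flags, slides and alternative scalings. The deposited fold changes and p-values entered no fit. The fits without littermate 3 were planned with earlier results known, by which that array stands apart and the deposited fold changes leave it out. limma 3.58.1 (R 4.3.3) was fitted over all 1831 miRNAs with Benjamini-Hochberg adjustment, and tested on simulated data in which 200 miRNAs changed. With all 6 arrays, an adjusted p under 0.05 recovered 0% of the 2-fold and 71.5% of the 4-fold changes. Without littermate 3, it recovered 44% and 93.5%. The simulated noise was independent between miRNAs, whereas many miRNAs shift together on these arrays, so the rates need not hold here. Exact permutation tests were two-sided. The study names miR-7047 and miR-7069 as decreased and miR-7039 as increased, without a strand in its text, and their 3p strands were taken here. The study named them from these same arrays, so their values here are not independent of that choice. Also named were the 5 members of highest mean level, the 3 of largest SD and those sharing a seed. The 3 of smallest p per direction and array set were named too. Others were named after their values were seen. Members and lists were chosen with earlier results of these data known. The number of arrays limits the precision. Sequences and spans are from RefSeq (GRCm38.p6).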

Additional observations from a re-analysis of the deposited data

How the results depend on the processing

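With all 6 arrays, 1 member was lower and 0 were higher at an unadjusted p under 0.05, and 0 passed the adjusted threshold under any alternative. The count lower was 0 with scanner signals scaled to the 75th percentile of the detected or of all probes or by quantiles, with an intensity trend, with the replicate block, with the slide block and with the median over the probes, an alternative chosen after seeing the data; the count higher was 1 with the trend. Leaving out 1 array gave 0 to 14 lower and 0 to 11 higher, the highest without littermate 3. The median difference over all miRNAs moved from -0.07 to -0.19 with scaling to the detected probes, and that of the members to -0.28; leaving out 1 array gave -0.21 to 0.31 over the members.

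Signs turned with all 6 arrays in the following members, and the cause was not tested. miR-7039-3p was at -0.11 and -0.0061 with the 75th percentile of the detected and of all probes and -0.072 with normexp. miR-6941-3p was at -0.39, -0.29, -0.11 and -0.024 with these 2 scalings, quantiles and normexp. miR-6938-3p was at -0.43, -0.26, -0.045 and -0.11, and at -0.11 with the median over the probes, settings that leave out or outweigh its marked spot. Leaving out 1 array gave -1.12 to 0.20 for miR-7047-3p, -0.025 to 0.72 for miR-7039-3p, -1.15 to 0.31 for miR-6957-3p, -0.21 to 0.67 for miR-6941-3p, -0.10 to 0.76 for miR-6988-3p and -0.12 to 3.70 for miR-6938-3p. The following counts of values of named members do not include the fits that leave out 1 array. With all 6 arrays, 104 kept their sign and their side of the threshold and 12 turned in sign. Without littermate 3, 109 kept both, 5 passed the adjusted threshold and 2 turned.

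Without littermate 3, 0 members passed the adjusted threshold, against 1 with the 75th percentile of all probes, 1 with the trend and 17 with the slide block. The count higher was 11, against 3 with either percentile scaling, 1 with normexp, 5 with the detection filter, 17 with the trend and 4 with the methods' t-test. The median difference of 0.31 was 0.047 and 0.0099 with the percentile scalings and 0.066 with normexp, while that over all miRNAs was 0.09, -0.14, -0.18 and 0.01. miR-7071-3p was at 0.018 and miR-6942-3p at -0.0024 with normexp. Leaving out a further array gave 0 to 10 members past the adjusted threshold (10 without Cdr1as-/- 2), 6 to 14 lower (6 without littermate 1), 2 to 26 higher (2 without littermate 2 or Cdr1as-/- 1, 26 without Cdr1as-/- 3) and medians of 0.20 to 0.43. With the replicate block, in which Cdr1as-/- 3 has no partner, 13 were lower, 15 higher and 0 called. The deviations of same-numbered mice had r of -0.76, 0.56 and -0.22 over 1831 miRNAs. These values were of mixed sign, so they cannot show whether the numbers pair the samples. Signal over background limits the members most on the array of Cdr1as-/- 2, where 56.8% were well above it.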
